A study of Arabidopsis thaliana with 4 samples.

Results

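The transcripts described here were lower after 30 min than after 10 min of gravistimulation in both flanks of the Arabidopsis thaliana inflorescence stem. They were read on 2-colour Agilent arrays, on which the lower and the upper flank of the same stems were hybridized together with different dyes. A gene probe counted as detected when its spot was well above background in both channels on both 10 min arrays, which held for 18321 of 21500 gene probes. Levels were log2 processed signals minus the median of the channel, so a level of 0 is the typical gene probe of that channel. Detected probes were kept when the mean level of the 2 arrays was lower at 30 than at 10 min by 0.8 or more in each flank. This held for 290 of the 18321 detected probes (1.58%), against 125 (0.682%) that were higher by 0.8 or more in both flanks. Another 21 of the 290 were left out because they carry names of 13 gene families (SAUR, IAA, BT, DIN, JAZ, PRR, PIF, LTI, ERD, COR, TCH, XTH and FSD). The remaining 269 probes are the members. Of these, 264 name 1 locus each and 5 name none. The members were thus chosen by the difference between 30 and 10 min in the same 4 arrays, so that difference is given below as a description with no test.

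All plants were wild type of ecotype Col, grown at 23 °C under constant white light, and no genotype or chemical treatment divided them. The labels also give 3 days at 4 °C and 10 days on plates, the same for all samples. Stems of 4 to 8 cm were laid flat at 23 °C in dim light with no direction, the top 5 mm was removed, and the next 3 cm was divided lengthwise by hand after 10 or 30 min. Each time had 2 arrays, with the lower flank in Cy5 on replicate 1 and in Cy3 on replicate 2. The labels call these arrays biological replicates, but do not say how many plants were pooled or whether the swapped array held new plants, so the p-values below measure only the spread between these arrays. There was no vertical stem and no time 0, and each time lay on arrays of its own. A change from 10 to 30 min can therefore not be told apart from a difference between the arrays of the times, the dim light or the hour.

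Shoots laid on their side bend upward because the lower flank elongates more than the upper. Gravity is sensed by starch-filled plastids in the endodermis, auxin is redirected to the lower flank, and auxin-induced genes rise there. Families of auxin-induced genes were left out here by name. Of the members, 135 were placed in functional groups and 134 in none. Plants adjust a large set of transcripts to their carbon supply: when sugar is short, the kinase SnRK1 and its partner bZIP transcription factors raise genes for amino acid breakdown, sugar recovery and starch release, and these genes fall again when sugar returns. The circadian clock, light, dehydration, cold and defence signals act on partly overlapping genes. In whole flanks of a stem, fewer cells of a type and less RNA per cell cannot be told apart.

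The defining genes of stem tissues were present. The secondary wall cellulose synthases CESA4, CESA7 and CESA8, the endodermal genes SCR and CASP1 and all 16 epidermal genes looked at were detected. Of the 10 genes of the flower list, AP3, PI, AG and SUP were not detected. The other 6 (AP1, SEP1, SEP2, SEP3, SPL and WUS) were, with a median level of -3.10 at 10 min, so floral transcripts were not absent. Between 18487 and 19553 gene probes were well above background per channel. No gene of the epidermis, guard cell, xylem and fibre, phloem and cambium, endodermis and starch sheath, photosynthetic tissue or flower lists met the thresholds of the members, where 1.58% of all detected probes did, so this count is near that of probes in general.

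Within the members the difference was larger in the lower flank in 195 cases and larger in the upper flank in 73. The lower minus the upper flank change had a median of -0.10 for members and -0.01 for all detected probes. The tilt was not confined to members: 191 detected probes passed the threshold in the lower flank only and 81 in the upper only. These counts rest on the contrast that chose the members and were not tested. The median change of the members was -1.21 for the lower flank and -1.06 for the upper, against 0.02 and 0.01 over all detected probes. A drop of at least 2-fold in both flanks was seen for 145 members and one of at least 4-fold for 13. In 260 members all 4 channels of 30 min lay below all 4 channels of 10 min. The rule that chose the members favours this separation, and it was not counted over all detected probes. It is therefore a description and no separate evidence of a drop, also where it is given for single members below. The levels of the 2 arrays of a flank differed by a median of 0.10 (lower) and 0.08 (upper) at 10 min and of 0.22 and 0.23 at 30 min. These gaps were close to those of all detected probes, which were 0.09 and 0.09 at 10 min and 0.20 and 0.20 at 30 min.

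**Figure D1:**
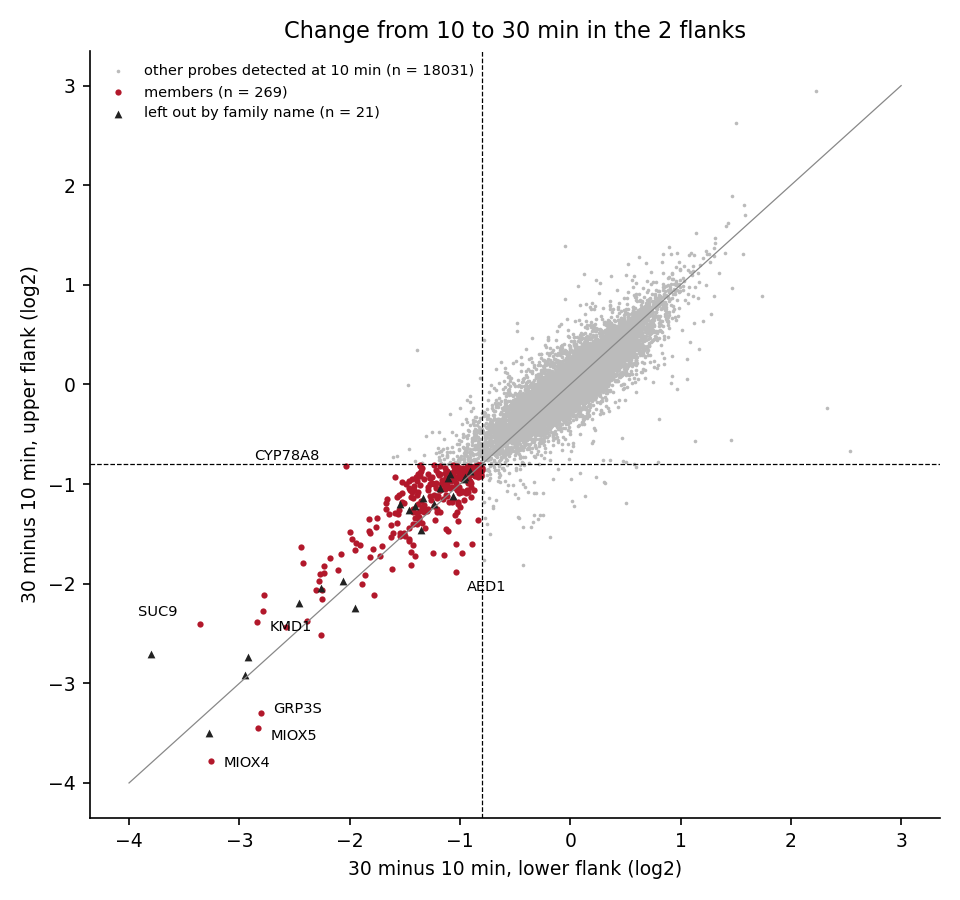
Difference between 30 and 10 min in the lower flank (x axis, log2) against the upper flank (y axis, log2), each point 1 detected probe, mean of 2 arrays per time. Red points are the 269 members, black triangles the 21 probes left out by family name, dashed lines the threshold of -0.8, and the grey line marks equal differences. Among the members MIOX4 and MIOX5 lie farthest down in the upper flank, with the left-out FSD1 between them, and AED1 below the line of equal differences.

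The size of these differences depended on how the signals were processed. Centring on the 75th percentile in place of the median left it nearly unchanged, with 267 probes meeting the thresholds and medians of -1.20 and -1.06. Another setting used background correction with normexp and an added offset of 50, then loess and quantile scaling of the log2 channel averages (Aquantile). With it the median of the same 269 probes was -0.84 for the lower flank and -0.75 for the upper. The part of the offset in this was not tested. On that scale 112 probes met the thresholds, all of them members, and all 269 members stayed below 0 in both flanks. The same 112 met the thresholds under each of the 5 other scalings tried, of which Aquantile is one. Of these 112, 105 also met the thresholds without each array in turn, as did only 178 of all 269 members. The 112 had a median level of 2.44 at 10 min and the other 157 members one of -0.86. Just inside the threshold were CEPR2 (-0.80 for the lower flank and -0.84 for the upper), AT5G60070 (-0.80 and -0.86) and RLP37 (-0.83 and -0.81). Just outside were BCAT-1 (-0.92 and -0.80), MEE14 (-1.11 and -0.80) and AT5G56980 (-0.85 and -0.80).

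By the mean of both flanks on the median-centred scale, the lowest values belonged to MIOX4 and MIOX5. These genes code for myo-inositol oxygenases, the enzymes that open inositol to glucuronic acid, a precursor of cell wall sugars. MIOX4 (AT4G26260) had levels of 0.58 and 0.51 in the lower flank at 10 min and of -2.52 and -2.91 at 30 min. In the upper flank its levels were 0.74 and 0.84 at 10 min and -3.06 and -2.93 at 30 min. All 4 values of 30 min thus lay far below all 4 of 10 min, and the difference was 9.55-fold in the lower and 13.7-fold in the upper flank. MIOX5 (AT5G56640) went from -0.40 and -0.41 to -3.39 and -3.08 in the lower flank and from -0.26 and -0.09 to -3.75 and -3.50 in the upper. The 2 genes had the same order of flanks, with the larger difference in the upper flank. After Aquantile scaling the values were -1.85 and -2.09 for MIOX4 and -1.31 and -1.52 for MIOX5. Neither was the lowest member on that scale, where GRP3S was at -2.44 and -2.88 and AT2G20670 at -2.44 and -2.31.

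Sugar and polyol carriers included SUC9, PMT6, STP1, STP14 and INT1. PMT6 (AT4G36670), a polyol and monosaccharide transporter of the plasma membrane, had levels of 1.51 and 1.54 at 10 min and -0.23 and -0.61 at 30 min in the lower flank, and of 1.47 and 1.55 and then 0.08 and -0.24 in the upper. STP1, the main monosaccharide importer of many tissues, was abundant, with 5.29 and 5.36 at 10 min and 4.26 and 4.09 at 30 min in the lower flank, and 5.31 and 5.31 and then 4.45 and 4.17 in the upper. For both genes the channels of the 2 times did not overlap, and STP1 had 1 outlier spot. STP14 and the tonoplast inositol carrier INT1 lay between -0.89 and -0.99 in each flank. SUC9 (AT5G06170), a proton-coupled sucrose importer, is also among the 12 lowest members, but its value rests on 1 array. Its level at 10 min was -2.17 for the lower flank and -2.25 for the upper on replicate 1, but 3.31 and 1.23 on replicate 2, and between -2.68 and -3.08 in the 4 channels of 30 min. The difference was -0.72 (lower) and -0.83 (upper) between the 2 arrays numbered 1, against -5.99 and -3.98 between those numbered 2, and 1 of its 4 spots carried an outlier flag.

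Genes of starch and trehalose metabolism were lower as well. CT-BMY (AT4G17090), the plastid beta-amylase that releases maltose from starch, went from 2.66 and 2.63 to 0.67 and 0.99 in the lower flank and from 2.53 and 2.51 to 0.90 and 1.16 in the upper. BAM4, a non-catalytic beta-amylase that promotes starch breakdown, was closer to the threshold, at -0.94 and -0.86. TPS8, TPS10 and TPS11 belong to the class II trehalose phosphate synthases, which lack clear synthase activity and are sugar-regulated. TPS11 (AT2G18700) had levels of 3.80 and 3.88 (lower) and 3.94 and 3.79 (upper) at 10 min, and of 2.38 and 2.45 and of 2.34 and 2.16 at 30 min, with outlier flags on 2 of its spots. TPS8 (AT1G70290) went from 2.27 and 2.33 to 0.57 and 0.97 in the lower flank and from 2.33 and 2.14 to 1.06 and 1.24 in the upper. TPS10 (AT1G60140) was the weakest of the 3, at -1.06 and -0.94. GolS1, galactinol synthase of raffinose formation, went from 0.14 and 0.08 to -1.18 and -1.34 (lower) and from 0.13 and 0.24 to -1.08 and -1.22 (upper).

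Another 13 members act in amino acid breakdown or are known starvation markers. BCAT-2 (AT1G10070), a branched-chain aminotransferase, went from 3.33 and 3.27 to 2.15 and 1.93 in the lower flank and from 3.31 and 3.42 to 2.40 and 2.35 in the upper. The next steps of leucine breakdown were also among the members, with AT1G21400, a subunit of the branched-chain keto acid dehydrogenase, at -1.18 and -1.28 and MCCA, a subunit of methylcrotonyl-CoA carboxylase, at -1.12 and -1.12. BCE2, another subunit of that dehydrogenase, met the thresholds too (-1.35 and -1.46) but was left out for its other name DIN3, and BCAT-1 lay just outside. GDH2, a glutamate dehydrogenase, and PDS1, of tyrosine breakdown, had -0.81 and -0.90 and -1.32 and -1.21. Of regulators, bZIP1 (AT5G49450), a SnRK1-linked transcription factor of low energy, went from 3.09 and 3.00 to 2.08 and 1.72 (lower) and from 2.91 and 3.09 to 2.08 and 1.91 (upper). AKINBETA1 (AT5G21170), a SnRK1 beta subunit, went from 2.19 and 2.13 to 1.24 and 1.07 and from 2.16 and 2.17 to 1.33 and 1.24. At 30 min BCAT-2 was higher in the upper flank on both arrays, while the flanks of bZIP1 overlapped.

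Further starvation markers are of other kinds. ATL8 (AT1G76410), a RING-type ubiquitin ligase gene, went from 0.61 and 0.49 to -1.05 and -1.03 in the lower flank and from 0.49 and 0.46 to -0.83 and -0.80 in the upper. EXL2 (AT5G64260), an EXORDIUM-like gene, went from 1.22 and 1.00 to -0.43 and -0.20 and from 1.33 and 1.18 to -0.27 and -0.03. DRM2, a dormancy-associated gene, was lower by more in the lower flank (-1.52) than in the upper (-0.97). AT4G27450 and AT3G15450, annotated on the array as similar to an auxin-repressed protein of Vigna radiata, had -1.44 and -1.69 and -1.16 and -0.96. AT3G15450 was among the brightest transcripts, at 7.90 to 8.12 at 10 min and 6.77 to 7.19 at 30 min. It was also the only member with a saturated spot, and its probe carried an outlier flag on 3 arrays.

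A list of 20 sugar and starvation genes was described on the same contrast. Of 19 detected, 11 met the thresholds in both flanks against 1.58% of all detected probes, 0 were higher by 0.8 or more, and the medians were -1.14 and -0.94. The list was chosen with earlier results of these data known, and its count rests on the contrast that chose the members, so nothing is read from it. The same holds for the counts of the other lists. Besides the 9 members TPS8, TPS10, TPS11, BCAT-2, bZIP1, STP1, ATL8, EXL2 and AKINBETA1, the 11 include SEN1 (-2.95 and -2.92) and ASN1 (-1.95 and -2.24), both left out as DIN genes. The list was not uniform: TPS5 was at 0.31 and 0.39, the plastid glucose phosphate carrier GPT2 at 0.45 and 0.52, and BZIP11, whose translation is repressed by sucrose, at 0.72 and 0.82.

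The 3 KMD genes code for F-box proteins named KISS ME DEADLY, which mark type B response regulators of cytokinin and enzymes of the phenylpropanoid pathway for degradation. KMD1 (AT1G80440) had levels of 2.56 and 2.43 in the lower flank at 10 min and of -0.50 and -0.18 at 30 min. Upper flank levels of KMD1 were 2.51 and 2.53 and then -0.05 and 0.32. The difference was 7.14-fold in the lower and 5.23-fold in the upper flank. KMD3 (AT2G44130) was at -1.62 and -1.41, and KMD4 (AT3G59940) at -1.83 and -1.35. All 3 also met the thresholds under each of the 5 other scalings and without each array in turn.

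The same held for 3 genes of the DUF506 family, whose function is not known, and for 4 genes of J-domain proteins, co-chaperones of HSP70. AT2G20670 (DUF506) was one of the most abundant members, with 5.53 and 5.49 (lower) and 5.57 and 5.57 (upper) at 10 min and 3.02 and 2.84 and 3.21 and 3.05 at 30 min. AT3G07350 was at -1.82 and -1.73 and AT4G32480 at -1.51 and -1.19. Among the J-domain genes, the plastid protein genes J8 (AT1G80920) and J11 (AT4G36040) were at -1.67 and -1.25 and at -1.57 and -1.13. DJC24 had -1.43 and -1.28, and DJC66 -1.34 and -1.23. In each of these 7 genes the difference was larger in the lower flank.

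**Figure D2:**
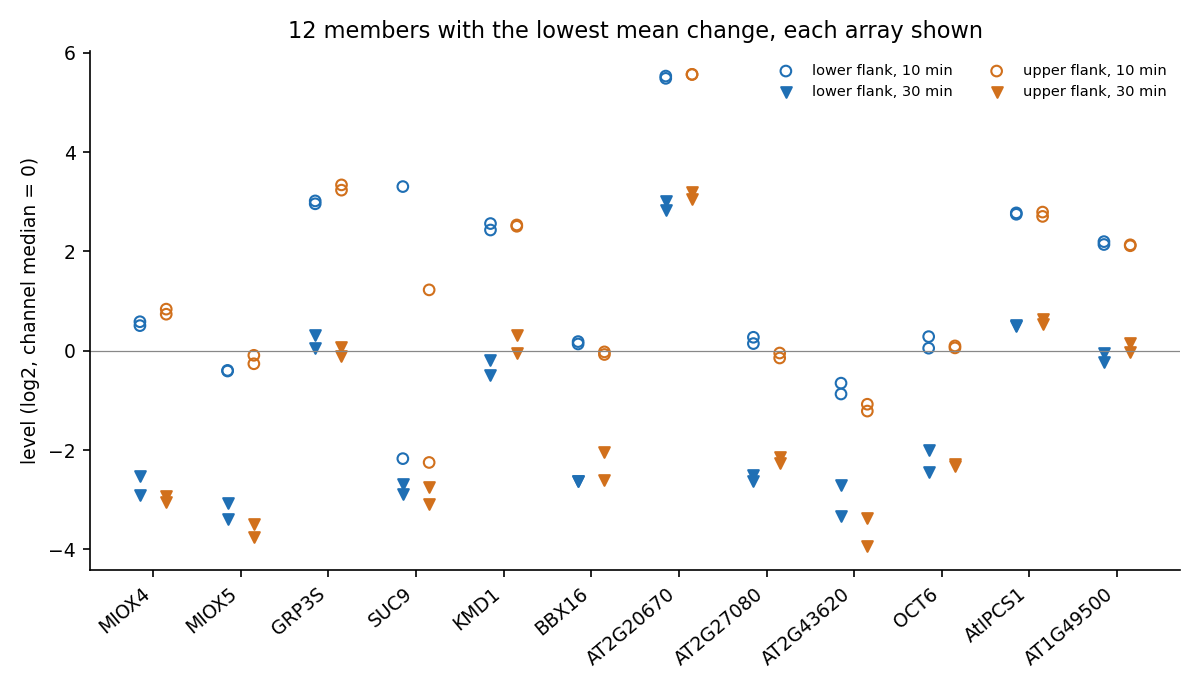
Levels (log2, channel median at 0) of the 12 members with the lowest mean difference between 30 and 10 min, with 1 point per array. Open circles are 10 min and filled triangles 30 min, blue the lower and orange the upper flank. In 11 of the 12 genes the times do not overlap by a wide margin, while SUC9 is high on replicate 2 of 10 min only.

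The other members among the 12 lowest have varied roles. GRP3S (AT2G05380), a small secreted glycine-rich protein, went from 3.02 and 2.96 to 0.32 and 0.05 in the lower flank and from 3.23 and 3.34 to 0.08 and -0.10 in the upper, a 6.98-fold and a 9.84-fold difference. OCT6 (AT1G16370), an organic cation carrier gene, went from 0.05 and 0.28 to -2.44 and -1.999 and from 0.10 and 0.06 to -2.27 and -2.32. AtIPCS1 (AT3G54020), an inositol phosphorylceramide synthase of sphingolipid formation, went from 2.78 and 2.75 to 0.52 and 0.51 (lower) and from 2.71 and 2.79 to 0.55 and 0.64 (upper). For all of them the 4 channels of a time lay close together. AT1G49500, of unknown function, went from 2.14 and 2.20 to -0.05 and -0.22 and from 2.12 and 2.13 to 0.15 and -0.03. AT2G27080, annotated on the array as related to harpin-induced proteins, went from 0.14 and 0.27 to -2.62 and -2.51 and from -0.05 and -0.15 to -2.14 and -2.27. AT2G43620, a putative chitinase, went from -0.65 and -0.87 to -3.33 and -2.71 and from -1.08 and -1.22 to -3.94 and -3.38. These last 2 genes are counted below with the defence genes.

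Glycine-rich protein genes gave 6 members. Besides GRP3S they were AT4G18280 (-2.11 for the lower flank and -1.87 for the upper), AT2G05540 (-1.45 and -1.06), GRP-3 (-1.36 and -1.01), AT4G30450 (-1.08 and -0.97) and GRP9 (-0.97 and -0.89). GRP-3, a ligand of wall-associated kinases, GRP3S, GRP9 and AT2G05540 have related repeats and lie near each other on chromosome 2, so their probes may share signal, and their values are not independent.

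Clock and light genes formed 15 members. BBX16 (AT1G73870), a B-box zinc finger gene, was the lowest of them, going from 0.14 and 0.18 to -2.63 and -2.62 in the lower flank and from -0.08 and -0.02 to -2.05 and -2.61 in the upper. COL5 and BBX17, also B-box genes, were at -1.63 and -1.53 and at -1.54 and -1.49, and BBX28 at -0.83 and -0.82. PCL1 (AT3G46640, also LUX), a DNA-binding subunit of the evening complex, went from 0.60 and 0.42 to -0.77 and -0.86 (lower) and from 0.69 and 0.75 to -0.73 and -0.72 (upper). GI, GIGANTEA, which stabilizes the clock protein ZTL and acts in flowering, went from -0.96 and -0.80 to -1.77 and -1.99 and from -0.64 and -0.70 to -1.64 and -2.17. RVE1, a MYB-like factor that links the clock to auxin synthesis, went from 3.09 and 3.03 to 1.55 and 1.71 and from 2.91 and 2.85 to 1.65 and 1.83. CDF2, a DOF repressor of flowering, went from -0.93 and -0.90 to -1.95 and -2.15 and from -0.94 and -1.03 to -1.70 and -2.05. The times did not overlap for any of these 4 genes.

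Of 18 clock genes in a list, these 4 (PCL1, GI, RVE1 and CDF2) met the thresholds, against 1.58% of all detected probes. The list holds 1 gene of the left-out PRR family, TOC1 (also PRR1), at -0.76 and -0.69. In this list 0 were higher by 0.8 or more, and the medians were -0.49 and -0.32. PRR5 (-1.41 and -1.22) and PRR7 (-1.18 and -1.04) also met them but were left out by name, whereas the morning gene LHY was at 0.44 and 0.38. GI and CDF2 did not meet the thresholds after Aquantile scaling, where GI was at -0.50 and -0.65. JMJD5, a clock-associated demethylase, and LNK3 were at -1.11 and -0.96 and at -1.13 and -0.95.

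Among light-related members, PLPB, a blue light receptor-like protein with LOV and PAS domains, was at -1.64 and -1.30. PORA, protochlorophyllide reductase of the last light-driven step of chlorophyll formation, went from 1.61 and 1.62 to 0.00 and -0.01 in the lower flank and from 1.94 and 1.84 to 0.09 and 0.00 in the upper. BETA-OHASE 2, of carotenoid synthesis, was at -2.23 and -1.82, and LHB1B1, a light-harvesting protein of photosystem II, at -1.67 and -1.19. The 16 photosynthetic genes of another list were all detected, 0 of them met the thresholds and their medians were -0.41 and -0.25. Their summed level ranged from 2208 to 2985 channel medians over the 4 channels of 10 min and from 1935 to 2419 over those of 30 min, with LHCA4 lowest (-0.76 and -0.47). The part of this shift in the values of LHB1B1 and PORA was not tested. In the opposite direction, 4 of 25 detected genes of light induction and photoprotection were higher by 0.8 or more in both flanks, against 0.682% of all detected probes. They were ELIP2 (1.15 and 0.87), F3H (1.04 and 0.85), ELIP1 (0.99 and 0.94) and FLS1 (0.97 and 0.95). The list as a whole was not higher, with medians of -0.01 and 0.09. Its lowest genes were HEMA1 (-0.62 and -0.57), RUP1 (-0.75 and -0.41) and SIGE (-0.70 and -0.40), and 0 met the thresholds of the members.

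Members of dehydration and abscisic acid response numbered 8. LEA14 (AT1G01470), a late embryogenesis abundant protein, went from 3.73 and 3.72 to 1.80 and 1.68 in the lower flank and from 3.59 and 3.58 to 2.12 and 1.95 in the upper. The dehydrins LEA and AT4G38410 were at -1.60 and -1.49 and at -1.27 and -1.16. PYL5, an abscisic acid receptor, was at -1.27 and -0.94, the homeodomain gene HB-12 at -1.06 and -0.94, and NAC096, a transcription factor of dehydration response, at -1.55 and -1.52. Of 19 detected genes in a list of cold and abscisic acid response, 3 met the thresholds, against 1.58% of all detected probes. They were GolS1, RD29A (-2.26 and -2.04) and KIN2 (-1.09 and -0.90), the last 2 left out by name. The medians of the list were -0.20 and -0.21, and KIN1, the neighbour and near copy of KIN2, was at 0.42 and 0.44. Thus 7 of the 8 members of this group met the thresholds under all 5 other scalings, while most genes of the list did not meet them at all.

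Defence genes formed the largest group, with 27 members. Receptors and receptor-like kinases included SOBIR1, the partner kinase of receptor-like proteins, at -1.29 and -1.25, RLP19 (-2.08 and -1.70), RLP53 (-1.05 and -0.84) and CRK4 (-1.04 and -1.60). The intracellular immune receptors RPS2 and RPM1 were at -0.86 and -0.92 and at -0.83 and -0.88. Transcription factor genes of this group were WRKY28 (-2.28 and -1.97), WRKY50 (-1.39 and -1.40) and WRKY15 (-1.39 and -1.29). Among effectors, DMR6, which breaks down salicylic acid, was at -1.22 and -1.04 and PR4, a chitin-binding pathogenesis-related protein, at -1.27 and -0.99. Of this group 7 of the 27 met the thresholds under all 5 other scalings. WRKY28 had an outlier spot, differed by over 1 between the 10 min arrays and was at -0.44 and -0.47 after Aquantile scaling.

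Redox genes formed 12 members, led by PRX71 (AT5G64120), a cell wall peroxidase. It went from 1.38 and 1.26 to -0.69 and -0.44 in the lower flank and from 0.98 and 0.93 to -1.24 and -0.87 in the upper. TRX5, a cytosolic thioredoxin, was at -1.95 and -1.66, AT5G39580, a peroxidase, at -1.73 and -1.73, and OXS3, of oxidative stress tolerance, at -1.38 and -1.07. Glutaredoxin genes were AT3G62950 (-1.33 and -1.28), AT4G15700, AT4G15660 and AT2G30540. AT4G15700 and AT4G15660 were not well above background on either 30 min array in at least 1 flank and lie in a cluster of similar genes, so their probes may share signal. Of 15 detected genes of the jasmonate list, 1 met the thresholds, against 1.58% of all detected probes. It was CYP94C1, which inactivates the jasmonate hormone by oxidation. CYP94C1 went from 0.10 and 0.04 to -0.88 and -0.72 (lower) and from 0.17 and -0.01 to -0.86 and -0.63 (upper).

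One member is known for bending itself. EHB1 (AT1G70800, ENHANCED BENDING 1) is a small C2 domain protein whose loss increases phototropic and gravitropic bending of seedlings. It went from 0.48 and 0.56 at 10 min to -1.66 and -1.84 at 30 min in the lower flank and from 0.36 and 0.26 to -1.46 and -1.74 in the upper, a 4.82-fold and a 3.75-fold difference. Its flanks did not overlap between the times, and it met the thresholds under all 5 other scalings. AT1G70810, the next gene on chromosome 1 and another C2 domain protein, was at -1.40 and -0.93. Calcium-binding proteins among the members were CML41 (-0.97 and -0.84), AT3G01830 (-0.85 and -0.83), AT1G18210 (-1.20 and -1.12) and AT4G38810 (-0.99 and -0.86), and the kinase CIPK9 was at -1.12 and -1.02. In the list of calcium, MAP kinase and ubiquitin genes of rapid stress, 1 of 21 detected genes met the thresholds, against 1.58% of all detected probes. It was CML12, which is left out as TCH3 (-1.54 and -1.20). None of the 30 detected rapid stress and wound transcription factors met them, which is near that share, and their medians were -0.12 and -0.17.

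Low oxygen genes gave 3 members. PCO1, an oxygen-sensing cysteine oxidase, was at -1.11 and -1.47, HRA1, a trihelix factor that damps the hypoxia response, at -1.001 and -1.08, and HB1, a haemoglobin, at -1.05 and -0.87. Regulators of other kinds included MYBL2, a repressor of anthocyanin synthesis, at -2.42 and -1.79, and LBD39, a nitrate-induced repressor, at -1.46 and -1.44. DEWAX, a repressor of wax synthesis, was abundant and lower by -1.35 and -1.17, and NAP, a senescence factor, was at -1.40 and -0.93. AHP1, a cytokinin phosphotransfer protein, was not well above background in either flank at 30 min, nor was the amino acid exporter UMAMIT29. Of 16 detected cell wall loosening genes and of 17 early auxin, ethylene and gibberellin genes, 0 met the thresholds, which is close to the 1.58% of all detected probes and no result about growth genes. SAUR36 (-1.46 and -1.26), PIF4 (-0.91 and -0.86) and PIF5 (-1.23 and -1.20) met them and were left out by name.

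**Figure D3:**
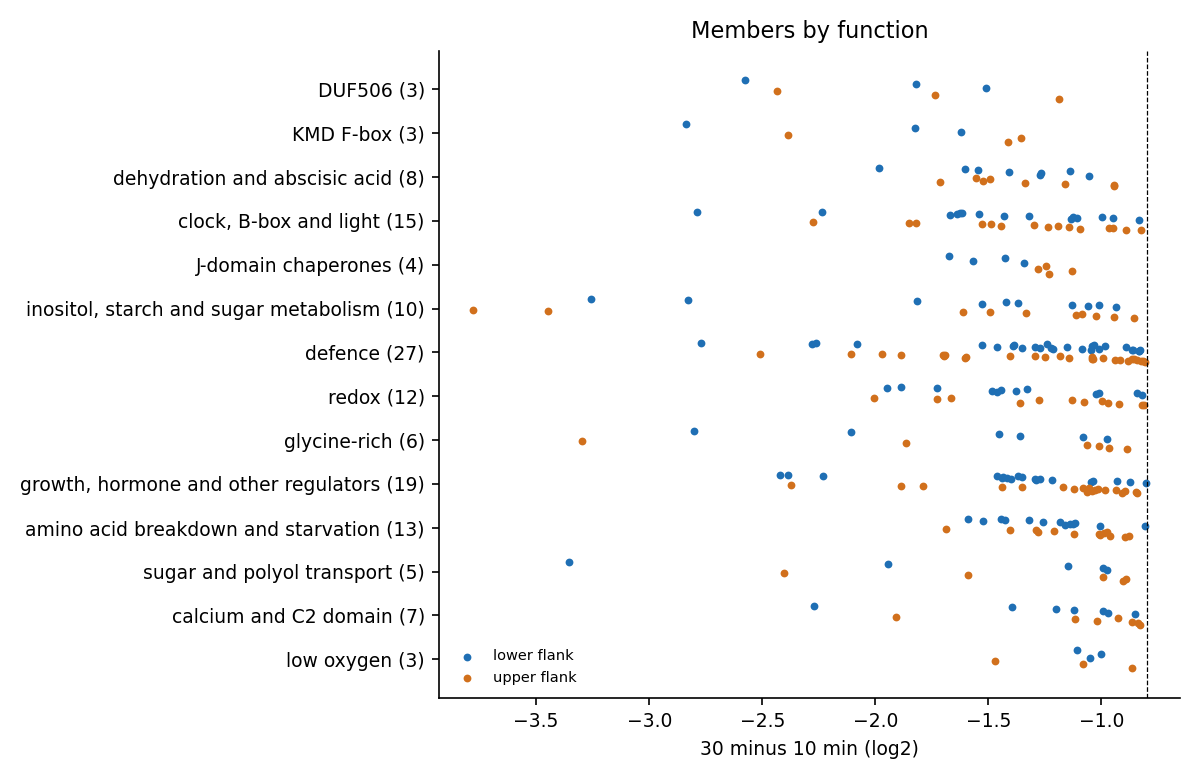
Difference between 30 and 10 min (x axis, log2) for the 135 members placed in 14 functional groups, with the number of members in brackets. Blue points are the lower and orange points the upper flank, the dashed line is the threshold of -0.8, and rows are ordered by the group's median. The groups were formed after the values were seen.

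**Figure D4:**
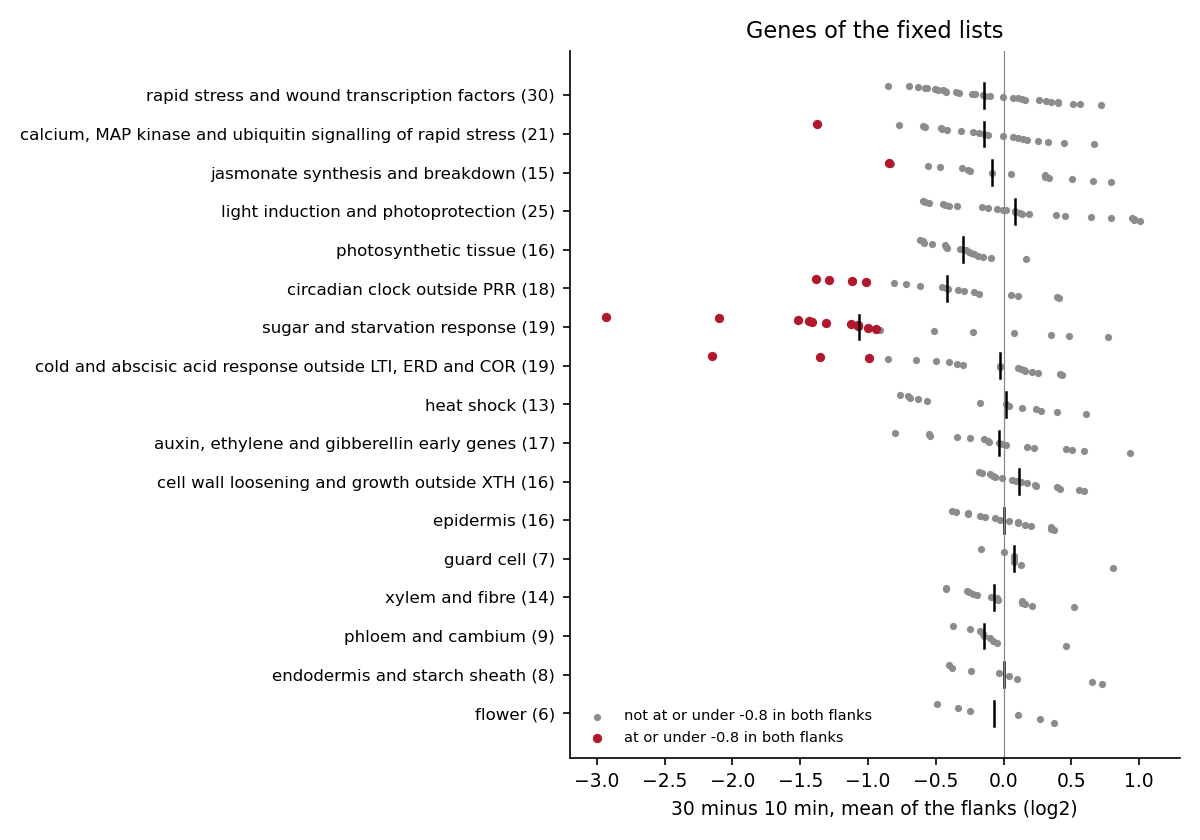
Mean of both flanks of the difference between 30 and 10 min (x axis, log2) for the detected genes of 17 lists, with the number of genes in brackets. Red points are genes at or under -0.8 in both flanks, and vertical bars are list medians. The sugar and starvation list has the most red points (11 of 19), and 12 of the 17 lists have none, the 7 tissue lists among them.

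Members that neared background at 30 min carry only a bound. In 13 members the spot was not well above background on either 30 min array in at least 1 flank, in 12 cases in the upper and in 8 in the lower flank. Their drop was at least 1.08-fold to at least 1.39-fold, taken against the lowest signal well above background after Aquantile scaling. The values on the median-centred scale given for these members are not measured sizes. They include WRKY28, UMAMIT29, CRK7, ARCK1, NAC011, AHP1, BIP3, AGO3 and ENDO2. A further 8 members had a difference above 0 on at least 1 of the 4 same-dye comparisons, among them DTX1, with -2.33 and -2.35 between the arrays numbered 1 but 0.58 and 0.65 between those numbered 2.

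The members lay on all 5 chromosomes. Chromosome 1 held 27.3% of the members against 27.2% of detected genes, chromosome 2 held 15.2% against 14.6%, chromosome 3 17.0% against 19.7%, chromosome 4 17.8% against 14.9% and chromosome 5 22.7% against 23.5%. There were 7 pairs of immediate neighbours. Besides EHB1 with AT1G70810 they include AHP1 with DMP1, BGLU45 with BGLU46, 2 glucosidases of lignin precursors, and SRC2 with BIP3. Genes of members had a median length of 1996 bases in the RefSeq table, against 2390 for all detected genes. The level of the members at 10 min had a median of 0.63, against 0.46 for detected probes, and ranged from -3.67 to 8.05.

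The comparison of the flanks did not enter the choice of the members in this form and was tested with limma over all 19272 probes tested. It used other background correction and scaling but the same spots, and the flank difference at 30 minus that at 10 min is the difference between the 2 flank changes that chose the members, so only each time and their mean were tested. At 10 min limma called 0 members and 0 of all 19272 probes (0%) at an adjusted p under 0.05. Without adjustment, 57 members (21.2%) had a p under 0.05, against 1141 of all probes tested (5.92%). The fit held no term for dye orientation, and the contrast between the dyes had an SD of 0.0603 over probes, against 0.0162 for what flank, time and dye leave over. With such a term limma called 123 members and 4262 of all probes at 10 min, and 161 members and 6351 of all probes at 30 min. The median of the members was 0.03 (lower over upper flank, log2) and that of all probes 0.00. Both arrays put 103 members higher in the lower flank (38.3% of members, against 21.9% of all probes) and 52 higher in the upper (19.3%, against 20.3%). Flank ratios of the 2 arrays correlated over all probes at -0.07 at 10 min and 0.42 at 30 min, a description across probes that share the arrays.

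At 30 min limma called 6 members (2.23%), against 94 of 19272 probes (0.488%). Of these, 5 were higher in the upper flank (1.86% of members, against 0.176% of all probes) and 1 in the lower. This direction depended on the scaling: of the 3 members called with the deposited processed signals or the series table, and of the 1 called with the smaller normexp offset or plain subtraction, 0 were higher in the upper flank. The median of the members was -0.03, and 117 of them were higher in the upper flank on both arrays (43.5%, against 23.4% of all probes), while 55 were higher in the lower (20.4%, against 24.1%). Averaged over both times, limma called 2 members (0.743%), against 41 of all probes (0.213%).

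AED1 (AT5G10760), a secreted aspartyl protease that limits systemic acquired resistance, was the member called with a higher level in the lower flank. Its log2 ratio of lower over upper flank was 0.25 and 0.20 on the 2 arrays of 10 min and 0.59 and 0.79 on those of 30 min. The flank difference was thus positive on every array, with 0.69 ± 0.06 (SE, n = 2 arrays, limma adjusted p = 0.0242) at 30 min and 0.45 ± 0.04 (limma adjusted p = 0.0420) over both times. It was lower at 30 than at 10 min by 2.05-fold in the lower and 3.70-fold in the upper flank. After Aquantile scaling AED1 was at -0.74 and -1.21 and so no longer met the threshold in the lower flank.

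The 5 members called with a higher level in the upper flank were KMD4, J8, AT3G10020, AT1G26800 and AT4G32480. KMD4 had ratios of 0.03 and -0.07 at 10 min and of -0.40 and -0.52 at 30 min, and its difference at 30 min was -0.46 ± 0.05 (limma adjusted p = 0.0462). J8 had -0.05 and 0.05 and then -0.43 and -0.38, with -0.41 ± 0.04 at 30 min (limma adjusted p = 0.0462). In both genes the flanks were alike within 0.1 at 10 min on each array. AT1G26800, a RING finger protein gene, had -0.02 and -0.03 and then -0.37 and -0.35, with -0.36 ± 0.03 (limma adjusted p = 0.0358), and AT4G32480 had 0.00 and -0.02 and then -0.30 and -0.33, with -0.31 ± 0.03 (limma adjusted p = 0.0495). On all 4 arrays AT3G10020, whose function is not known, was higher in the upper flank, with -0.15 and -0.18 at 10 min and -0.43 and -0.40 at 30 min. Its mean over both times was -0.29 ± 0.02 (limma adjusted p = 0.0389) and its difference at 30 min -0.41 ± 0.03 (limma adjusted p = 0.0254). These calls at 30 min, and those of AT3G10020 and AED1 for the mean, were lost with the deposited processed signals, the series table, a smaller normexp offset, plain background subtraction or median centring, while the directions stayed. KMD4, J8 and AT4G32480 were also lost without the filter on dim probes, and AED1 at 30 min was lost with median centring.

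**Figure D5:**
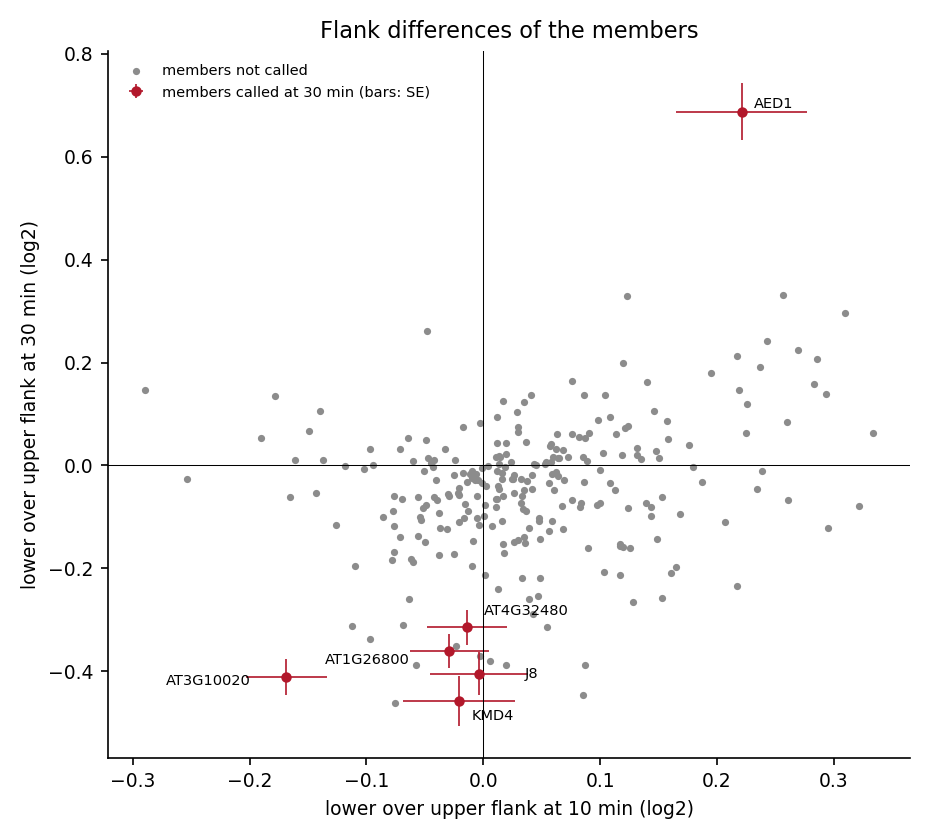
Log2 ratio of lower over upper flank at 10 min (x axis) and at 30 min (y axis) for the members, mean of 2 arrays at each time. Red points are the 6 members called by limma at 30 min, with standard errors from the fit, and grey points are the members not called. AED1 stands alone at the top, and the other 5 lie between -0.31 and -0.46 at 30 min.

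Other members with large mean flank differences were not called. Higher in the lower flank by their mean were PRX71 with 0.30 ± 0.03 (limma adjusted p = 0.0698), the PQ-loop membrane protein gene AT4G36850 with 0.29 ± 0.04, SOBIR1 with 0.25 ± 0.05 and AT5G60800, of a heavy metal-associated domain, with 0.25 ± 0.04. Each of these was positive on all 4 arrays. On the other side were AT4G33980 with -0.27 ± 0.06, AT4G23870, of unknown function, with -0.22 ± 0.06, and the CCCH zinc finger gene ATCTH with -0.22 ± 0.03. Other sources may call AT4G33980 a COR gene. It stayed a member because the RefSeq table used here gives it no such name. AT4G33980 and AT4G23870 changed sign between the 2 arrays of 10 min. By group, the median flank difference at 30 min was -0.35 for the 3 KMD genes, -0.28 for the 4 J-domain genes, -0.19 for the 3 DUF506 genes and 0.05 for the 27 defence genes, against -0.03 for all members. No test was made of these group medians.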

How the data were processed

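Total RNA of both flanks at 10 and 30 min was labelled and read on 4 Agilent arrays, 2 per time with swapped dyes. Per the file headers, Feature Extraction 8.1.1.1 quantified the images, and the deposited intensity columns hold each spot's mean brightness, local background and processed signal, the last background-subtracted and dye-normalized. The deposited flags (other values of 0 or 1) mark spots well above background, saturated and outlier spots. The authors' series table holds log10 ratios, lower over upper flank, that matched the log10 ratios of processed signals within 0.0005 for spots above background. Its column medians were 0, -0.00116, 0 and -0.00244.

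Levels were log2 processed signals minus the channel median over gene probes, with no test on their change. Flank ratios came from mean signals after normexp (offset 50) and loess in limma 3.58.1 under R 4.3.3, turned to lower over upper flank, without 1075 control spots and outlier spots (124, 120, 451 and 152 per array). They were fitted with lmFit and eBayes, both times sharing the spread, for the 19272 probes above background on both arrays of a flank and time. Adjustment over all probes followed Benjamini and Hochberg, and the fit was checked on simulated data. The simulated ratios had independent noise and no dye effect, so the check does not cover the contrast between the dyes. Array annotation gave loci, and symbols came from a RefSeq table (TAIR10.1). Families were matched by symbol or synonym there. For a list gene the brightest probe naming only that locus was used.

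Members, lists and groups were chosen with earlier results of these data known. Named in full were the 12 members with the lowest mean change, those called, the 5 highest and 5 lowest mean flank differences and those in a list, and, once, the 3 just inside and outside the threshold. Other members are examples of their group. Alternatives changed background correction, scaling, filters, thresholds, the replicate term and the arrays used. Precision is limited by the number of arrays.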

Additional observations from a re-analysis of the deposited data

Results flagged for a closer look

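In 6 of the members named above both arrays of 10 min put one flank higher and both arrays of 30 min the other, and this difference between the times was not tested. RVE1 was higher in the lower flank at 10 min (0.17) and in the upper at 30 min (-0.0949). AT2G27080 went the same way, from 0.21 to -0.11, as did ATL8, from 0.0559 to -0.13, and AT1G49500, from 0.0349 to -0.14. GRP3S went the other way, from -0.29 at 10 min to 0.15 at 30 min, as did MIOX5, from -0.15 to 0.0674. Over all members, 38 (14.1%) went from higher in the lower to higher in the upper flank on all arrays and 7 (2.60%) went the opposite way, against 9.14% and 9.12% of all probes tested. The rule that chose the members limits how far their flanks can part between the times, so these shares are a description.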

How the results depend on the processing

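The number of members was 118 with quantile scaling of the 8 channels and 112 with loess and Aquantile, both after normexp with an offset of 50. It was 145 with a threshold of -1, 535 with one of -0.6, and 171 when each same-dye comparison had to pass. Without each array it ranged from 257 to 431, the highest without replicate 2 of 30 min, but only 178 of the 269 members met the thresholds each time. The number stayed within 1.5-fold of 269 under the other settings, including 256 without outlier spots, a setting added after the data were seen. The median change was -0.85 (lower) and -0.76 (upper) with quantile scaling, -0.84 and -0.75 with Aquantile and -1.08 and -0.92 with mean minus local background signals. At 10 min no member was called under any processing setting, but 20 (of 120 over all probes) were with each time fitted alone, 3 to 20 (of 48 to 120) without each array and 123 (of 4262) with the replicate block. At 30 min 1 was called with an offset of 16, 1 with plain subtraction, 3 with processed signals, 3 with the series table, 3 without a filter on dim probes, 0 with median centring, 43 (of 620 over all probes) with the time fitted alone, 17 to 43 (of 274 to 620) without each array and 161 (of 6351) with the replicate block. For the mean of both times the counts were 0 with the offset of 16, 0 with plain subtraction, 0 with median centring, 22 to 28 (of 175 to 217) without each array and 143 (of 3642) with the replicate block. The median flank difference at 30 min was -0.0560 with the offset of 16, -0.0664 with processed signals, -0.0664 with the series table, -0.0630 with median centring and -0.0564 for probes above background on all 4 arrays, and -0.0508 to -0.0281 without each array, while the median of the mean was -0.0323 with median centring. The cause was not tested. The replicate number is also the dye orientation, with only 2 arrays per time, so whether it pairs plants cannot be told. Between the times, ratios of the same number correlated at 0.27 and 0.28 over probes and those of different numbers at -0.43 and -0.38. Of the 8 calls of single members, none changed direction under the settings that gave a value. A slide block could not be fitted because no slide held more than 1 array. With 2 arrays per time and dim spots at 30 min, small flank differences and the size of drops to background are not resolved.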
